A study of Mus musculus with 3 samples.

Results

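Procr, Thbd, F2r and Vwf encode proteins by which vessel walls and blood cells meet thrombin and the clotting system. They are 4 of the 27998 genes of the deposited matrix, found there by gene symbol, and the 4 symbols match the Ensembl identifiers of the annotation. They were chosen by measured levels in these same cells, in which Procr and Vwf stood above the endothelial level in a cluster with blood genes. Their levels are therefore given as a description and are not tested. The study profiled RNA in single cells of the AGM (aorta, gonad and mesonephros), the part of the mouse embryo in which the dorsal aorta forms the earliest stem cells of the blood. Tissue from E10.5 embryos with 28 to 32 somite pairs was pooled and sorted into 3 populations, 1 sample each. These were T1-preHSCs (Ter119-CD31+VCad+CD41lowcKit+), the precursors of stem cells, endothelial cells (Ter119-CD31+VCad+CD41-cKit+) and AGM niche cells (live, Ter119-). The labels give no genotype, strain or treatment, and all 3 populations had Ter119+ red blood cells removed.

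Thrombin, the enzyme that makes fibrin, cleaves protease-activated receptors on cells. F2r encodes the first of these receptors, PAR1, which is known on endothelium and several other cell types. Thbd encodes thrombomodulin, an endothelial surface protein that binds thrombin and turns it toward the activation of protein C. Procr encodes the endothelial protein C receptor (EPCR), which presents protein C for this activation and is also used as a surface marker of haematopoietic stem cells. Vwf encodes von Willebrand factor, which endothelium and megakaryocytes store in granules and which tethers platelets. In the aorta, precursors of stem cells emerge from endothelium, so genes shared by endothelium and blood are followed across that border here.

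All coordinates are on GRCm38, and no member overlaps another annotated gene. Procr (ENSMUSG00000027611) lies at chr2:155751117-155755471 on the plus strand, with 3 exons in its longest transcript. Thbd (ENSMUSG00000074743) lies at chr2:148404466-148408188 on the minus strand and has 1 exon. F2r (ENSMUSG00000048376) lies at chr13:95601803-95618487 on the minus strand, with 2 exons. Vwf (ENSMUSG00000001930) lies at chr6:125546774-125686679 on the plus strand, with 52 exons. Unique molecular identifiers (UMIs) were counted on transcripts caught at their 3' ends, so gene length and splicing do not enter the counts as they would with whole transcripts. Levels are still compared below between cells and not between genes.

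The promoters of Procr and F2r are shown because the levels of these genes differed in breadth: Procr was largely held by precursors and endothelium, while F2r was found in nearly every class. Each run is 300 bases of RefSeq sequence (GRCm38.p6), 5′ to 3′ on the strand of the gene, from 250 bases before the RefSeq start to 50 after it. For both genes that start is not the same base as the start in the gene coordinates above. Capitals mark GGAA, the core letters bound by ETS factors, on either strand (TTCC on the other).
Procr, chr2:155750967-155751266, plus strand: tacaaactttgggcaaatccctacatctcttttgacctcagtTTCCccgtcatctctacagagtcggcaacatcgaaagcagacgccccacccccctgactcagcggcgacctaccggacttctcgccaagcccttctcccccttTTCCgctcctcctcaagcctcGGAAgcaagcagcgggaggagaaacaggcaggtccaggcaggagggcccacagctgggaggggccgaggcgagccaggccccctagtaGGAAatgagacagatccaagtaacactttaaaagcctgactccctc
F2r, chr13:95618417-95618716, minus strand: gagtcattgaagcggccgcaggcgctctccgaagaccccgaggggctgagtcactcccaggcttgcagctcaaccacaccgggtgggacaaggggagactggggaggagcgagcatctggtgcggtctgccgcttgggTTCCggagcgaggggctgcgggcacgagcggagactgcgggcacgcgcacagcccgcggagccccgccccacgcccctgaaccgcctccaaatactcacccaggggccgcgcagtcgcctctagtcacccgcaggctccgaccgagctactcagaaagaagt
The Procr window held 4 matches to GGAA and the F2r window 1, while 96.0% of the 32851 promoters of the table held at least 1, so the match itself sets neither gene apart. TGTGG, the core of RUNX sites, had 1 match in each window, against a share of 55.9% of promoters with a match. The letters GATAA of erythroid and endothelial factor sites had no match in either window (25.4% of promoters have one). The Sp factor core GGGCGG had 1 match in F2r and none in Procr (35.7% of promoters). All motifs were searched on both strands, and their matches did not overlap. The F2r window was richer in CpG, with an observed over expected ratio of 0.792 and 68.7% G or C, than that of Procr, with 0.528 and 58.3%.

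The matrix held 78653331 UMIs over 9492 barcodes (median 7544 UMIs and 2488 genes), of which 8915 were kept. Barcodes carry 8 suffixes, called libraries 1 to 8 here, and no label ties a library to a population. The whole matrix was therefore treated as 1 sample, and a 95% interval beside a level covers counting error only. Median depth was 6548 to 8698 UMIs in libraries 1 to 6 and 14725.5 and 15593 UMIs in libraries 7 and 8. Of the barcode sequences, 54 occurred in more than 1 library (108 barcodes). Cells were clustered without the 4 genes, and 26 of 31 clusters were named from marker lists. The blood precursor-like class was cluster 13, with 266 cells, of which 204 had a Cdh5 UMI (the gene of VE-cadherin) and 62 had none. Its leading genes were Spi1, Nupr1 and Runx1, with 11 of 12 blood precursor and 8 of 13 endothelial markers raised. The endothelial-like class held 1943 cells, and 5927 cells fell into 9 niche classes. A further 629 cells stayed unnamed. Libraries 5 and 6 held 937 and 901 of the endothelial-like cells. The precursor-like cells with Cdh5 numbered 35, 26, 52 and 79 in libraries 5 to 8, and libraries 7 and 8 held 2 endothelial-like cells each.

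Procr was highest in the precursor-like cells, intermediate in endothelium and near 0 elsewhere. Levels are given as CPM, the UMIs of the gene in each 1000000 UMIs of the class. Procr stood at 69.5 CPM (95% Poisson interval 59.8 to 80.4, 183 UMIs) in precursor-like cells with Cdh5 and at 64.9 CPM (47.5 to 86.5, 46 UMIs) in those without Cdh5. The intervals of these 2 classes overlapped, and both lay above that of every other class except arterial-gated endothelium, whose wide interval reached into that of the cells without Cdh5. Next came venous-gated endothelium at 19.6 CPM (17.4 to 22.1), arterial-gated endothelium at 19.3 CPM (3.98 to 56.4, from 3 UMIs in 19 cells) and intermediate endothelium at 9.06 CPM (4.95 to 15.2). Library 8 was the only one with 20 or more precursor-like cells without Cdh5. There these cells stood at 22.6 CPM (10.3 to 42.9, 9 UMIs in 29 cells), an interval that includes the pooled venous-gated level. Megakaryocyte-like cells had 2 Procr UMIs (3.42 CPM, 0.41 to 12.3). The niche classes lay between 0 and 0.988 CPM, with neural crest or sympathetic-like cells at the top. Macrophage-like, erythroid-like and granulocyte-monocyte progenitor-like cells had no Procr UMI, which allows up to 4.33, 15.2 and 7.24 CPM.

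A Procr UMI was seen in 50.5% of precursor-like cells with Cdh5, 12.2% of endothelial-like cells and 0.0651% of neural-like cells. Median depths were 12238, 7659 and 6387 UMIs. With every cell thinned to 3000 UMIs these shares were 18.4%, 5.28% and 0.07%, so the order did not change at equal depth. For Vwf the thinned shares were 28.9% of precursor-like cells with Cdh5, 3.84% of endothelial-like cells and 0.07% of neural-like cells. Thinning left out 3 precursor-like, 69 endothelial-like and 107 neural-like cells. Free RNA may differ by library, and the neural-like cells speak for libraries 1 to 4, which held 420, 359, 331 and 410 of them. In libraries 5 and 6, germ-cell-like cells had a Procr UMI in 0.917% of 109 and 0% of 104 cells, unthinned, and no Vwf UMI. Libraries 7 and 8 held 1 niche cell each, so no such background can be given there.

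Vwf, like Procr, was high in the precursors, and it parted from Procr in the megakaryocyte-like cells. It stood at 96.9 CPM (85.4 to 110) in precursor-like cells with Cdh5, 94.0 CPM (70.8 to 122) in megakaryocyte-like cells, 59.2 CPM (42.7 to 80.0) in precursor-like cells without Cdh5 and 57.9 CPM (26.5 to 109.9, 9 UMIs) in arterial-gated endothelium. Neighbours in this order had overlapping intervals, but those of precursor-like cells with and without Cdh5 did not overlap. Venous-gated endothelium followed without overlap at 12.2 CPM (10.47 to 14.2), beside intermediate endothelium at 11.0 CPM (6.41 to 17.6). No niche class exceeded 2.53 CPM, which was 1 UMI in smooth muscle-like cells. Germ-cell-like, mesenchymal-like, nephric-like and neural crest or sympathetic-like cells had no Vwf UMI.

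F2r was broad. Megakaryocyte-like cells led at 199.98 CPM (165 to 240, 117 UMIs), without overlap with any other class. The 3 endothelial subsets stood at 49.2 CPM (intermediate, 38.7 to 61.5), 45.0 CPM (arterial-gated, 18.1 to 92.8) and 43.3 CPM (venous-gated, 39.9 to 46.9), and precursor-like cells with Cdh5 at 39.5 CPM (32.3 to 47.9). These 4 overlapped with one another and with coelomic epithelial or gonadal-like cells at 38.0 CPM (30.6 to 46.7). The other niche classes ran through smooth muscle-like (30.3 CPM), mesenchymal-like (26.8 CPM) and neural-like cells (24.3 CPM) to myotome or dermomyotome-like cells (12.9 CPM), each overlapping its neighbour in the order. Germ-cell-like cells stood apart at 1.55 CPM (0.32 to 4.54, 3 UMIs), and macrophage-like and erythroid-like cells had none, which allows up to 4.33 and 15.2 CPM.

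Thbd was low throughout. Smooth muscle-like cells had the highest level at 22.7 CPM (10.4 to 43.2), from 9 UMIs in 49 cells. Arterial-gated endothelium followed at 12.9 CPM (1.56 to 46.5, 2 UMIs), venous-gated endothelium at 8.55 CPM (7.09 to 10.2, 121 UMIs) and precursor-like cells with Cdh5 at 7.60 CPM (4.64 to 11.7, 20 UMIs). Every neighbouring pair in the order of Thbd had overlapping intervals. Mesenchymal-like, myotome or dermomyotome-like, coelomic epithelial or gonadal-like and nephric-like cells had no Thbd UMI.

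**Figure D1:**
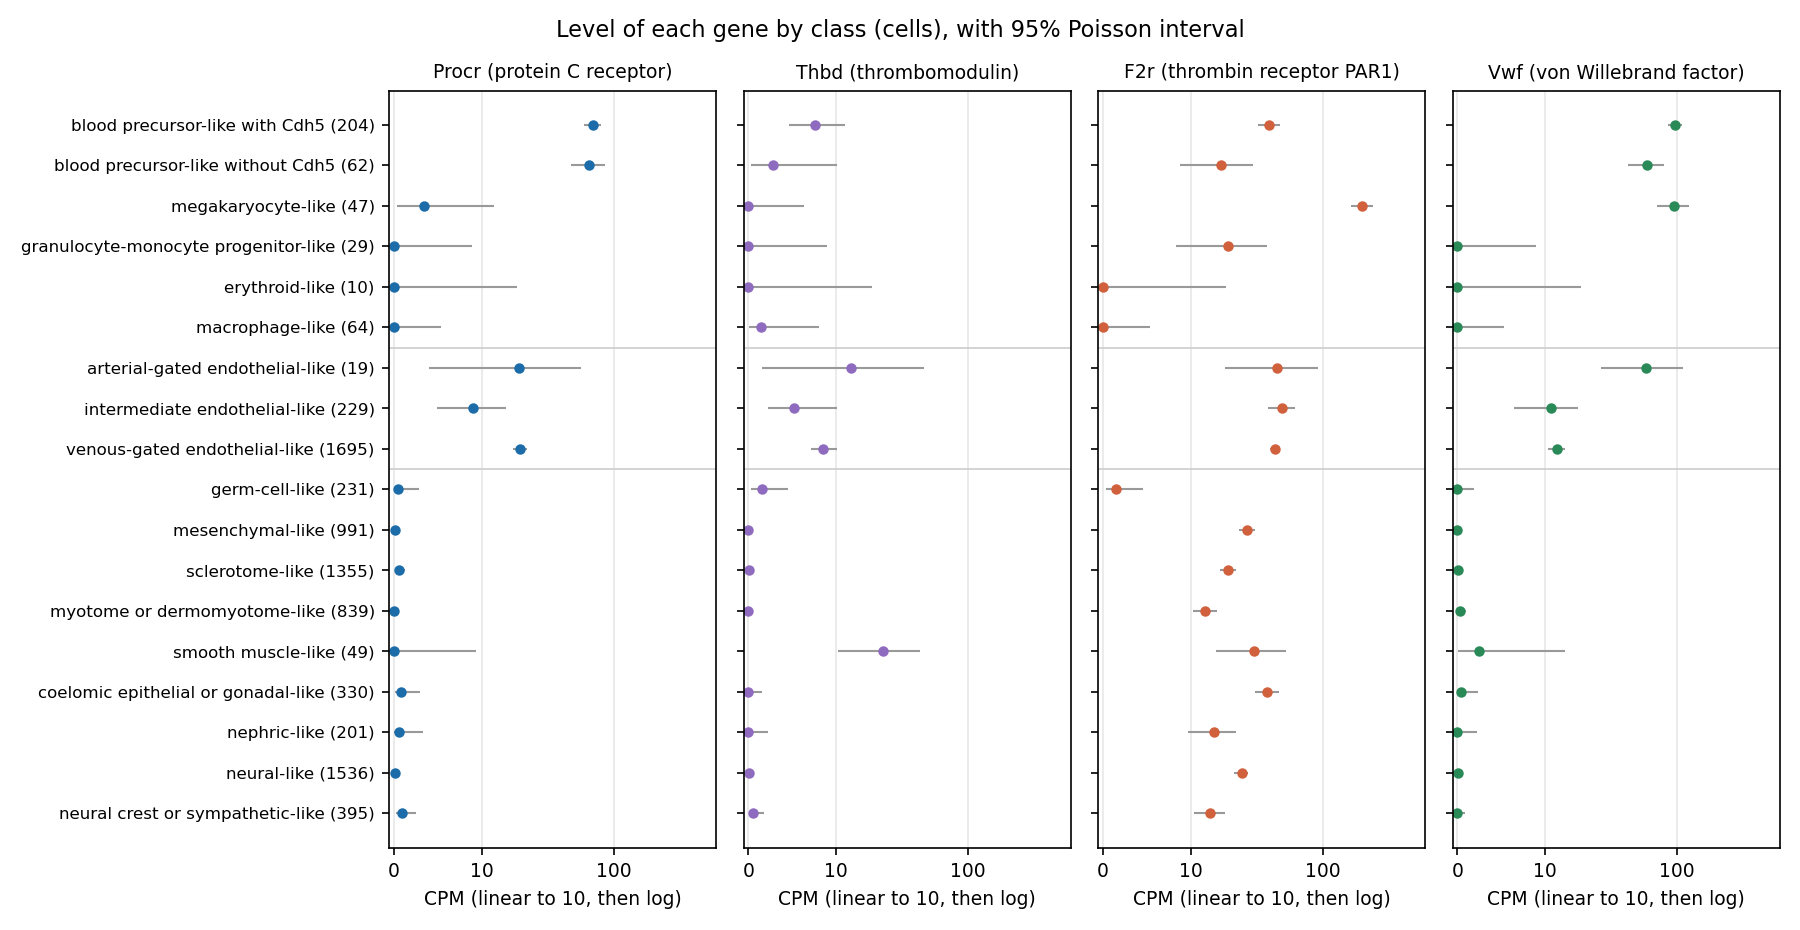
Level of each gene in CPM (horizontal axis, linear to 10 and logarithmic above) by class, with the number of cells in parentheses and 95% Poisson intervals as bars; grey lines divide blood, endothelial and niche classes. Procr and Vwf sit to the right in both precursor-like classes (64.9 to 69.5 and 59.2 to 96.9 CPM), F2r peaks at 199.98 CPM in megakaryocyte-like cells and is spread over most classes, and Thbd reaches 22.7 CPM at most.

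Precursor-like cells with Cdh5 were then compared with the endothelium from which such precursors are held to arise. Ratios were formed as log2((CPM + 10)/(CPM + 10)), which understates the difference of genes with low levels. A gene counts as past the fold at a log2 ratio of at least 1 in size with 20 CPM or more in the class where it is higher, and if no library with 20 or more cells of each class goes the other way. Against all endothelial-like cells, a comparison added after the small size of the arterial gate was seen, Procr stood at 69.5 against 18.6 CPM, a log2 ratio of 1.48 (1.18 to 1.77 from the ends of both intervals). Vwf stood at 96.9 against 12.5 CPM, a log2 ratio of 2.25 (1.97 to 2.52). F2r, at 39.5 against 43.9 CPM, had a log2 ratio of -0.12 (-0.44 to 0.19), and Thbd, at 7.60 against 8.26 CPM, one of -0.053 (-0.44 to 0.36). Procr and Vwf were past the fold, as were 4.55% of all 5844 genes tested in the higher direction, while 7.07% were past it in the lower direction. This contrast was among those by which Procr and Vwf were picked, and nothing is read from the count.

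The difference was larger within libraries than pooled. In libraries 5 and 6, the only ones with 20 cells of both classes, precursor-like cells with Cdh5 had 172 and 111 CPM of Procr against 19.4 and 17.9 CPM in the endothelial-like ones (log2 ratios 2.63 and 2.11). For Vwf they had 168 and 205 CPM against 13.1 and 12.03 CPM (2.94 and 3.28). For F2r they had 70.5 and 66.4 CPM against 46.3 and 42.0 CPM (0.52 and 0.55), both positive where the pooled ratio was near 0. These F2r levels rest on 16 and 12 UMIs. Their intervals (40.3 to 115 and 34.3 to 116 CPM) include the endothelial levels, so no difference in F2r is read from them. With both libraries weighted equally the log2 ratios were 2.40 for Procr, 3.12 for Vwf and 0.53 for F2r.

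Precursor-like cells with Cdh5 differed among libraries themselves. Procr stood at 172, 111, 65.3 and 44.4 CPM in libraries 5, 6, 7 and 8, Vwf at 168, 205, 87.0 and 73.9 CPM, and F2r at 70.5, 66.4, 39.9 and 31.9 CPM. Libraries 5 and 6 were the high ones for each of the 3 genes, and for Vwf their intervals did not overlap those of libraries 7 and 8. Thbd, at 8.82, 5.53, 9.67 and 6.23 CPM, showed no such order, with 1 to 8 UMIs per library. The libraries that were high for these genes were shallower, with median depths of 7089, 7073.5, 13965.5 and 15308 UMIs. Their cells also carried more RNA of endothelial genes: the 13 endothelial markers summed to 3060, 3182, 1283 and 1081 CPM and the 9 arterial genes of the gate to 582, 515, 73.7 and 47.5 CPM. The 12 blood precursor markers varied less, with sums of 1221, 1262, 1503 and 1500 CPM, and the 10 megakaryocyte markers summed to 48.5, 66.4, 133 and 150 CPM. The part of depth, library or sort in these differences was not tested.

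**Figure D2:**
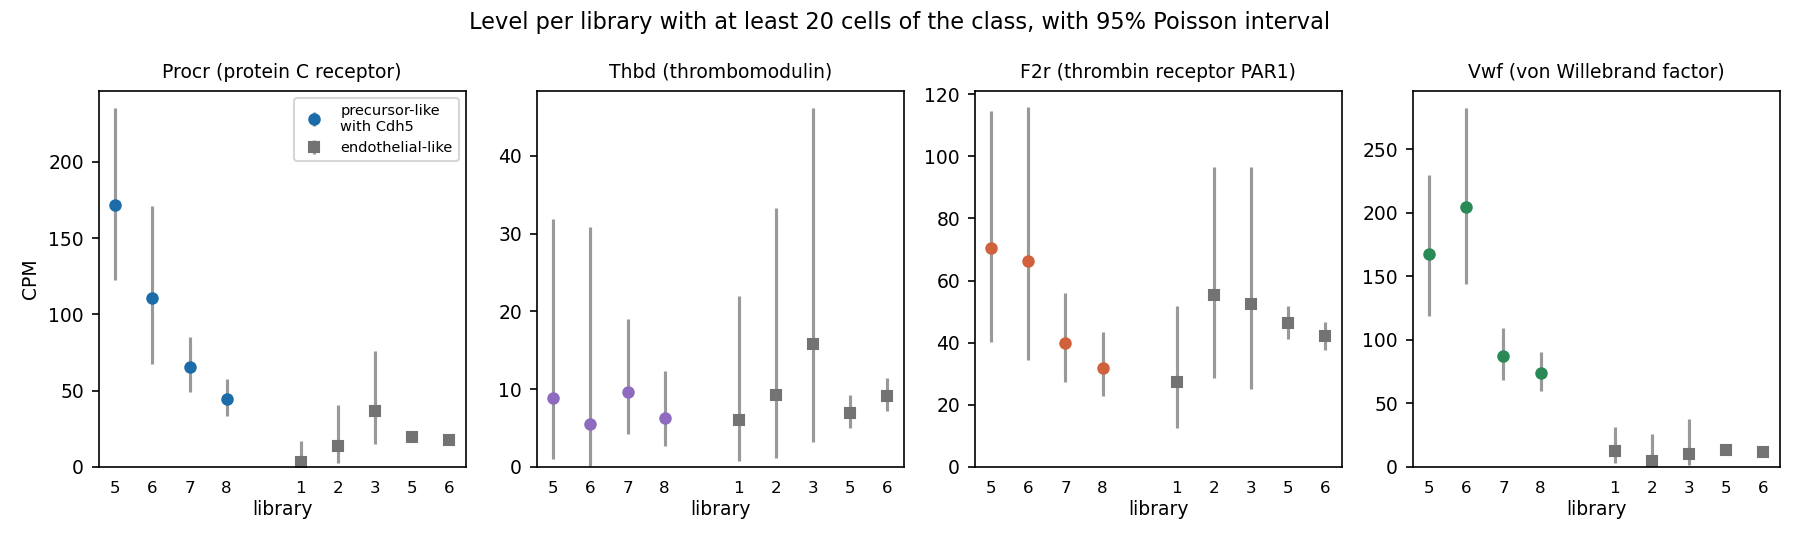
Level of each gene in CPM (vertical axis, from 0) in each library that held 20 or more such cells, with 95% Poisson intervals; coloured circles are precursor-like cells with Cdh5, grey squares endothelial-like cells. In libraries 5 and 6 the circles of Procr and Vwf stand at 111 to 205 CPM and the squares at 12.03 to 19.4 CPM, while those of F2r lie at 66.4 to 70.5 and 42.0 to 46.3 CPM.

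Within the whole precursor-like class, Procr and F2r were higher in cells with arterial genes. Cells with a UMI of at least 1 of the 9 arterial genes had 97.8 CPM of Procr (82.3 to 115, 123 cells), against 46.4 CPM (37.2 to 57.1, 143 cells) in those with none. F2r stood at 49.9 against 23.2 CPM and Vwf at 109 against 73.7 CPM. In libraries 5 and 6 together Procr stood at 185 CPM (143 to 234, 57 cells) against 129 CPM (77.5 to 201, 23 cells), and in libraries 7 and 8 at 62.5 CPM (48.1 to 79.8, 61 cells) against 39.2 CPM (30.3 to 50.0, 110 cells). The intervals overlapped within each pair of libraries, although the direction was shared. F2r had the same direction in both, with 70.6 against 40.6 CPM in libraries 5 and 6 and 42.9 against 21.7 CPM in libraries 7 and 8, where the intervals (31.2 to 57.6 and 15.2 to 30.1 CPM) did not overlap. Vwf did not keep its direction: it stood at 166 against 183 CPM in libraries 5 and 6 and at 83.9 against 65.7 CPM in libraries 7 and 8. Cells with more UMIs have more genes detected, but here the cells with arterial genes were the shallower ones over all libraries (median 9941 against 13393 UMIs). Thinned to 3000 UMIs, a Procr UMI was found in 43.6% against 22.7% of cells in libraries 5 and 6 but in 6.56% against 10% in libraries 7 and 8, so no order is read from the shares there. The groups were close in depth within libraries 5 and 6 (6542 against 6649 UMIs) and within libraries 7 and 8 (14830 against 14706.5 UMIs).

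The Cdh5 gate gave a Procr ratio near 0 in the pooled sums. Precursor-like cells with Cdh5 stood at 69.5 CPM against 64.9 CPM in those without, a log2 ratio of 0.088 (-0.47 to 0.65), but the ratio was 1.06 with gates on markers alone and 1.16 with the members and list genes allowed for clustering. For F2r the ratio was 0.88 (39.5 against 16.9 CPM, limits 0.10 to 1.63), for Vwf 0.63 (96.9 against 59.2 CPM, limits 0.08 to 1.18) and for Thbd 0.46 (7.60 against 2.82 CPM, from 20 and 2 UMIs). None of the 4 genes was past the fold, and 0.596% of 5540 genes were past it higher and 0.289% lower. The alternatives moved this: the 2 ratios of Procr above exceed 1, and the ratio of Vwf was at least 1 under 4 of 19 alternatives (1.47 with gates on markers alone and 1.67 with the list genes allowed), that of F2r under 2 and that of Thbd under 1. In library 8, the only one with 20 cells of both, the Procr ratio was 0.74 (44.4 against 22.6 CPM). At a median of 12238 against 9874.5 UMIs, cells with a Cdh5 UMI were deeper, and 55 of the 204 had exactly 1 such UMI, so how far depth enters the split was not tested.

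In endothelium, Procr was lower where more arterial genes were detected. These cells were also deeper, with medians of 7286, 8122.5, 8478 and 9739 UMIs at 0, 1, 2 and 3 to 9 arterial genes. Along that order Procr stood at 21.9 CPM (19.01 to 25.04, 1251 cells), 15.3 CPM (11.8 to 19.5, 490 cells), 11.7 CPM (6.41 to 19.7, 129 cells) and 6.65 CPM (2.16 to 15.5, 73 cells). Vwf had no such order, at 14.5, 7.89, 8.37 and 21.3 CPM, and its highest value rests on 16 UMIs. F2r was even, at 42.3, 43.9, 55.3 and 46.6 CPM, and Thbd stood at 9.58, 6.73, 3.35 and 7.98 CPM. Thus the direction of the Procr level along arterial genes in endothelium ran opposite to that in the precursor-like class. In that class the intervals overlapped within each pair of libraries, and the thinned share in libraries 7 and 8 went the other way (6.56% against 10%).

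**Figure D3:**
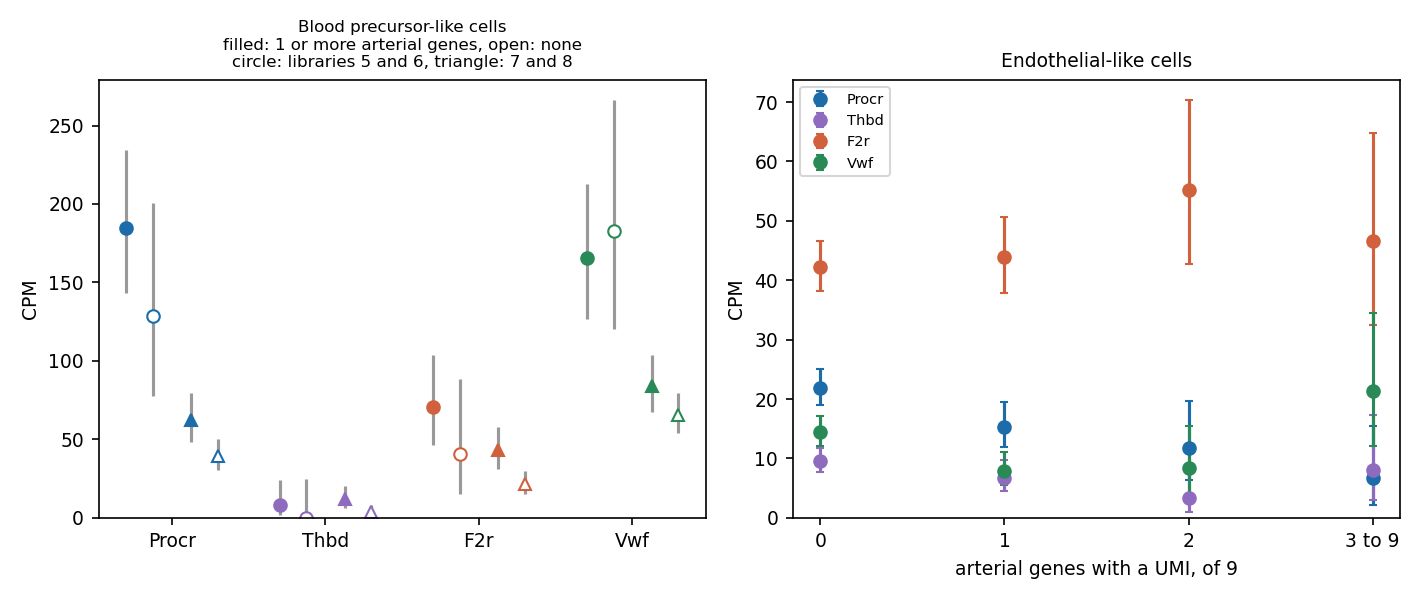
Level of each gene in CPM (vertical axes, from 0) with 95% Poisson intervals, at left in precursor-like cells with at least 1 arterial gene (filled) and with none (open), in libraries 5 and 6 (circles) and 7 and 8 (triangles), and at right in endothelial-like cells by the number of arterial genes with a UMI. At left the filled Procr symbols (185 and 62.5 CPM) stand above their open partners (129 and 39.2 CPM), and at right Procr is 21.9 CPM with no arterial gene and 6.65 CPM with 3 to 9.

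The endothelial gates compare arterial with venous identity. A cell was arterial-gated with UMIs of at least 2 of 9 arterial genes and of at least 2 more arterial than venous genes, and venous-gated the other way round. Venous genes were widespread in this endothelium, with a median of 4 of 9 detected per cell against 0 arterial ones, so 19 cells were arterial-gated, 1695 venous-gated and 229 intermediate. Of the 19, 15 lay at the least margin that the gate accepts. Their arterial genes summed to 965 CPM against 51.6 CPM in venous-gated cells, and their venous genes to 328 against 1094 CPM. Both sums follow from the gate, which uses these same genes, and say nothing further on identity. In the 19 cells, 3 of the 9 venous genes still stood at 20 CPM or more. Nr2f2, the factor of venous identity, Stab2 and Lyve1 had no UMI, which allows up to 19.3 CPM.

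Of the 4 genes, Vwf differed most between the gates. It stood at 57.9 CPM in arterial-gated cells against 12.2 CPM in venous-gated cells, a log2 ratio of 1.61 (0.59 to 2.55), and was past the fold, as were 6.32% of 5805 genes in the higher and 4.82% in the lower direction. This rests on 9 UMIs in 5 of 19 cells, and the ratio was 1.13 without library 6 and 1.89 without library 5. With the gate on arterial genes alone, an alternative added after seeing the data, 202 cells stood at 13.4 CPM against 12.4 CPM in the other 1741, and the ratio was 0.058. F2r stood at 45.0 against 43.3 CPM (log2 ratio 0.046, limits -1.02 to 1.04), Procr at 19.3 against 19.6 CPM (-0.016, limits -1.20 to 1.28) and Thbd at 12.9 against 8.55 CPM (0.30, limits -0.81 to 1.72). These limits span differences of about 1 log2 unit or more either way, so a difference of that size was not detectable at this depth. With the gate on arterial genes alone Procr stood at 9.76 CPM (5.88 to 15.2) against 19.8 CPM (17.6 to 22.3).

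Precursor-like cells with Cdh5 were also set beside the 19 arterial-gated cells. Procr stood at 69.5 against 19.3 CPM, a log2 ratio of 1.44 with limits from 0.07 to 2.69. It was past the fold, with no library that held 20 cells of both classes, as were 11.2% of 6135 genes higher and 16.3% lower. Vwf stood at 96.9 against 57.9 CPM (0.65, limits -0.33 to 1.71), but its ratio was 2.19 with the gate on arterial genes alone and -0.44 with a gate margin of 3 genes. F2r stood at 39.5 against 45.0 CPM (-0.15, limits -1.28 to 1.04) and Thbd at 7.60 against 12.9 CPM (-0.38, limits -1.95 to 0.91). Without library 5 the ratio of Procr was 0.62, under the fold, and without library 6 it was 2.94, with 10 arterial-gated cells left in each case. At clustering resolution 2 the arterial-gated class had 30 cells, among them 11 that the main clustering placed in the precursor-like class with Cdh5. These 11 cells held 181 CPM of Procr and 211 CPM of Vwf, the other 19 held 19.3 and 57.9 CPM, and the log2 ratio of Procr became -0.027.

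The endothelium itself formed 2 clusters, both divided mainly between libraries 5 and 6. Cluster 0 (1164 cells, led by Emcn, Prl3b1 and Cldn5, with 43.6 CPM of summed arterial and 1154 CPM of venous genes) had 26.3 and 21.5 CPM of Procr in libraries 5 and 6. Cluster 2 (779 cells, led by Kcne3, Clec1b and Cd34, with 144 and 846 CPM) had 9.29 and 12.8 CPM. Vwf stood at 17.7 and 15.2 CPM in cluster 0 and at 6.31 and 7.58 CPM in cluster 2. F2r did not separate them, with 45.0 and 40.0 CPM in cluster 0 and 48.3 and 44.9 CPM in cluster 2. Both libraries thus gave the same order of the clusters for Procr and Vwf. Endothelial-like cells with a UMI of at least 1 blood precursor gene had 26.6 CPM of Procr (20.1 to 34.4, 222 cells) against 17.4 CPM (15.2 to 19.7, 1721 cells) in those with none, at median depths of 9035 against 7476 UMIs, and 14.0 against 12.3 CPM of Vwf.

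Endothelial-like cells against the niche classes showed 3 of the genes at low endothelial levels and lower still in the summed niche. Procr stood at 18.6 against 0.339 CPM, a 55.0-fold difference, Vwf at 12.5 against 0.127 CPM, 98.9-fold, and Thbd at 8.26 against 0.339 CPM, 24.4-fold. The niche sum of Thbd hides the smooth muscle-like cells, which at 22.7 CPM stood above the endothelium and gave 9 of its 16 UMIs. The endothelial levels of the 3 genes lay under 20 CPM, so they did not enter the fold rule, and on the scale with 10 CPM added their log2 ratios were 1.47, 1.15 and 0.82. F2r stood at 43.9 against 20.4 CPM, a log2 ratio of 0.83 (0.68 to 0.98), and was not past the fold, while 8.29% of 5973 genes were past it higher and 4.87% lower. With equal weight per library, or with a pseudocount of 1, the ratio of F2r was 1.07 and so above 1. Its ratio was 0.36, 1.12 and 0.96 in libraries 1, 2 and 3 and 1.69 and 1.28 in libraries 5 and 6, where most niche cells were germ-cell-like. Those 2 libraries held 109 of 142 and 104 of 133 niche cells of that kind, and germ-cell-like cells had next to no F2r.

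Among niche cells F2r differed within classes. In the neural-like class, the 722 cells of cluster 3, led by Hes5, Pantr1 and Pax6 as in progenitors, stood at 13.1 CPM (10.2 to 16.5), while cluster 11 (289 cells, led by Onecut2, Lhx5 and Crabp1) stood at 41.2 CPM (31.9 to 52.3) and cluster 12 (274 cells, led by the motor neuron factors Lhx3 and Isl1) at 42.4 CPM (33.2 to 53.4). Clusters 11 and 12 lay just below the levels of the endothelial subsets, with overlapping intervals. The other 3 neural-like clusters lay between, at 27.5 CPM (cluster 19, 18.4 to 39.4, led by Nefl, Ina and Stmn2), 25.8 CPM (cluster 21, 14.1 to 43.3, led by Fabp7, Ly6h and Foxa2) and 22.0 CPM (cluster 23, 12.3 to 36.3, led by the sensory neuron factor Pou4f1). The intervals of these 3 overlapped those of clusters 11 and 12, and the intervals of clusters 21 and 23 also overlapped that of cluster 3. Thinned to 3000 UMIs, an F2r UMI was found in 3.41% of cells of cluster 3, 12.1% of cluster 11 and 12.4% of cluster 12. Coelomic epithelial or gonadal-like cells had 38.8, 33.3, 49.7 and 32.0 CPM in libraries 1 to 4, sclerotome-like cells 17.0, 21.1, 15.3 and 21.6 CPM and mesenchymal-like cells 21.0, 25.1, 27.9 and 30.8 CPM. The coelomic class was the highest of the 3 in every one of these libraries, but its interval overlapped that of mesenchymal-like cells in each. Thinned to 3000 UMIs, its share of cells with an F2r UMI was also the highest in libraries 1 to 3. In library 4 that share was 4.55%, below mesenchymal-like (9.89%) and sclerotome-like cells (6.18%).

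Megakaryocyte-like cells held F2r and Vwf and hardly any Procr or Thbd. F2r stood at 199.98 CPM against 43.9 CPM in the endothelial-like class, a log2 ratio of 1.96 (1.61 to 2.30), and Vwf at 94.0 against 12.5 CPM, a log2 ratio of 2.21 (1.73 to 2.67). Both were past the fold, as were 10.2% of 6042 genes higher and 13.6% lower. Procr stood at 3.42 against 18.6 CPM (2 and 295 UMIs, ratio 0.184). Thbd had no UMI in these 47 cells, against 8.26 CPM in endothelial-like cells, which makes it at least 1.61-fold lower with the limit of 3 UMIs over the class. No library held 20 cells of both classes, so the directions have no check by library. Of the 13 endothelial markers, 5 stood at 20 CPM or more in the megakaryocyte-like cells, among them Kdr at 70.1 and Pecam1 at 35.9 CPM. Cdh5, Emcn, Cldn5, Ramp2, Sox18 and Robo4 were at 0 there. The 13 markers summed to 446 CPM against 5458 CPM in endothelial-like cells.

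The class joined 2 clusters that differed in these genes. The larger one (28 cells, all from libraries 1 to 4) had all 10 megakaryocyte markers raised, among them Pf4, platelet factor 4, at 27907 CPM, and stood at 287 CPM of F2r (227 to 357) and 182 CPM of Vwf (135 to 239). The smaller one (19 cells, of which 6 and 11 from libraries 7 and 8) was led by Rap1b, Fermt3 and Car2. It had 4 of 10 megakaryocyte and 3 of 12 blood precursor markers raised, with Pf4 at 226 CPM. Its levels were 123 CPM of F2r (86.8 to 168) and 16.1 CPM of Vwf (5.24 to 37.7). Neither pair of intervals overlapped. Without the smaller cluster, left out after its values had been seen, the log2 ratio against endothelial-like cells was 2.46 for F2r and 3.09 for Vwf. Marker level and library cannot be told apart between these clusters, since the smaller one had 2 cells in the libraries of the larger.

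Markers of the platelet lineage had a lower sum in the precursors than in megakaryocyte-like cells. The 10 megakaryocyte markers summed to 142 CPM in the precursor-like class, with Tubb1 and Gp6 at 0 and Pf4 at 45.2 CPM, against 16790 CPM in megakaryocyte-like cells. Beside endothelial-like cells, the precursor-like class was higher in Pf4 (45.2 against 3.59 CPM) and Itga2b (19.8 against 3.03 CPM), and lower in the sum (142 against 279 CPM). Only 1 of the 10 markers reached 20 CPM in endothelial-like cells, and 5 had no UMI there. In arterial-gated cells Clec1b was the only marker with UMIs (547 CPM). The sum therefore does not rank these classes by platelet-lineage RNA. In precursor-like cells with Cdh5 the sums were 48.5 and 66.4 CPM in libraries 5 and 6 and 133 and 150 CPM in libraries 7 and 8. Whether the platelet lineage has a part in their Vwf was not tested. Of the platelet receptor subunits for Vwf, Gp5 and Gp1ba had no UMI in precursor-like cells with Cdh5, Gp1bb stood at 0.38 CPM and Gp9 at 14.1 CPM, against 120, 56.4, 42.7 and 952 CPM in megakaryocyte-like cells. Itgb3, which platelets also carry, stood at 77.9 against 518 CPM.

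Within precursor-like cells with Cdh5, Procr and Vwf were found together about as often as each was found in the class. Of these 204 cells, 67 had UMIs of both: Vwf was found in 65.0% of the 103 with Procr and in 65.7% of all, and Procr in 50.0% of the 134 with Vwf and in 50.5% of all. F2r and Vwf met in 53 cells, so Vwf was found in 77.9% of the 68 with F2r. At least 1 of the 4 genes was found in all but 23 of these cells, and 38 cells had 3 of them. In endothelial-like cells, Procr and Vwf met in 37 of 1943 cells, 15.6% of the 237 with Procr, against 8.29% with Vwf among all of them, and 1065 cells had none of the 4. In megakaryocyte-like cells F2r and Vwf met in 20 of 47, which is 55.6% of the 36 with F2r, against 51.1% with Vwf among all 47. Deeper cells give more joint detection, and the median depth was 12238 UMIs in the precursor-like cells with Cdh5, 7659 UMIs in endothelial-like cells and 12713 UMIs in megakaryocyte-like cells.

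The other genes of the clotting system were taken from 6 lists of 56 genes in all, the 4 members included. The list of Vwf, its storage granule and its platelet receptor had, besides Vwf, which was picked by this contrast, 3 of 4 tested genes higher in precursor-like cells with Cdh5 than in all endothelial-like cells and none lower (median log2 ratio 1.42, against -0.03 over all 5844 genes tested, of which 4.55% were higher and 7.07% lower). These were Itgb3, the beta chain of the fibrinogen receptor (77.9 against 0.126 CPM, log2 ratio 3.12), Rab27a, a regulator of granule release (35.3 against 5.49 CPM, 1.55), and Cd63, a granule membrane protein (268 against 104 CPM, 1.28), while Mmrn1, the granule protein multimerin, stood at 42.9 against 67.0 CPM (-0.54). In the protein C list Procr was the 1 of 2 tested genes past the fold, and S1pr1, the sphingosine phosphate receptor linked to EPCR signals, was not, at 17.9 against 44.5 CPM (-0.97). Pros1, the cofactor protein S, stood at 3.04 against 11.98 CPM.

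Anticoagulant and fibrinolytic genes other than Procr are described next. Tfpi, the inhibitor of the first clotting step, stood at 55.5 against 124 CPM (-1.03) and Anxa5, which covers exposed phospholipid, at 49.0 against 199.5 CPM (-1.83), while F10, clotting factor X, stood at 31.9 against 0.063 CPM (2.06). These were 1 higher and 2 lower of 3 tested genes of clot start and inhibitors (median -1.03). Within libraries 5 and 6 the ratios were smaller, at -0.49 and -0.71 for Tfpi and -1.22 and -0.22 for Anxa5. In the fibrinolysis list, Anxa2, a cell surface site of plasmin formation, was lower at 23.6 against 240.3 CPM (-2.90, or -1.77 and -0.90 within libraries 5 and 6), and its partner S100a10 was not past the fold (215 against 341 CPM, -0.64). These were the 2 genes tested (median -1.77). Of the flow-responsive list, Klf2, the flow-induced factor that raises Thbd in endothelium, was lower at 4.56 against 26.3 CPM (-1.32), and 1 of 3 tested genes was lower (median -1.28). Nos3, endothelial nitric oxide synthase, stood at 6.84 against 30.9 CPM and met the size but not the library check. Of 9 tested receptor and G protein genes (median -0.12), 1 was lower: Gnai2, an inhibitory G protein, at 503 against 1088 CPM (-1.10). Arrb2, an arrestin, stood at 31.9 against 15.6 CPM (0.71).

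**Figure D4:**
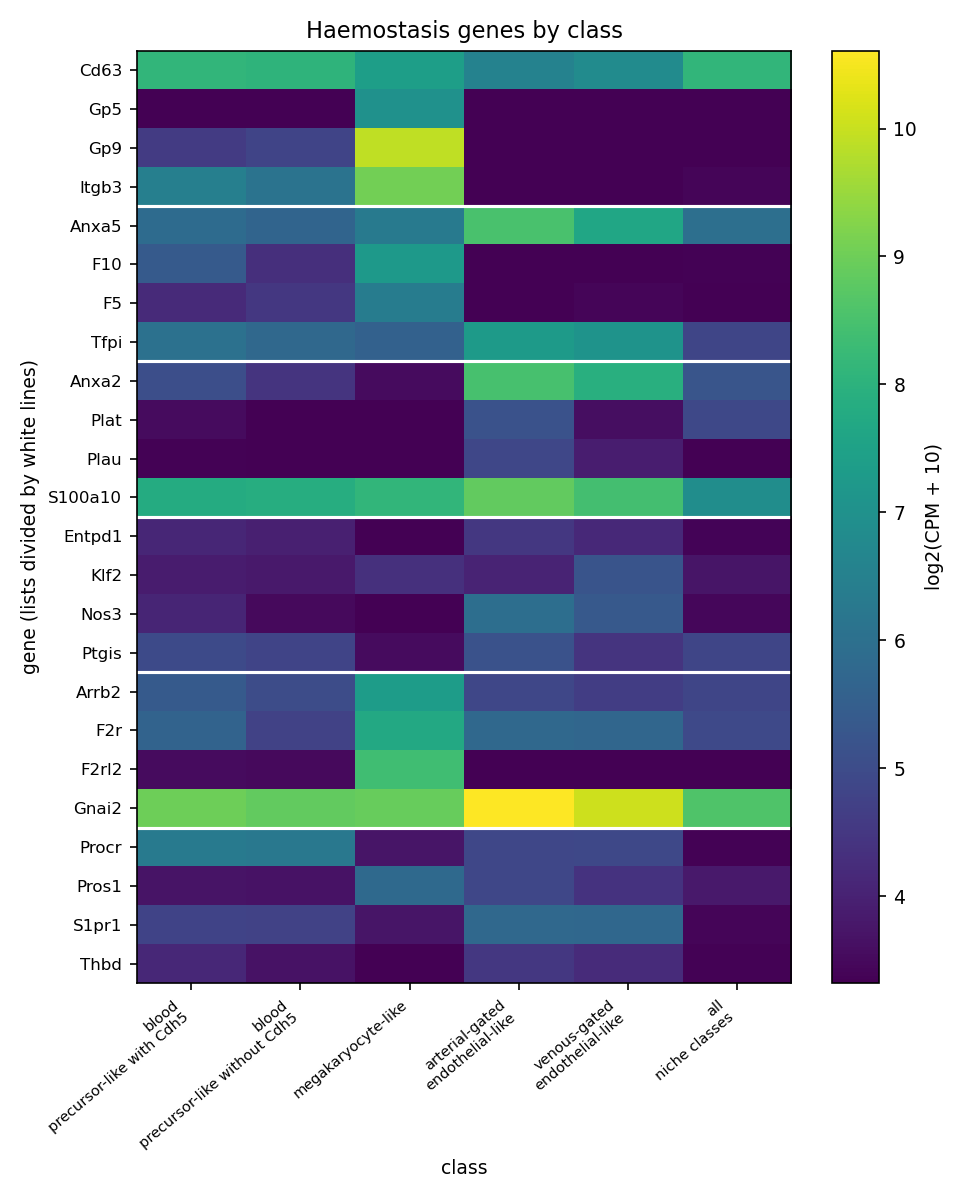
Level of the named genes of the 6 lists as log2(CPM + 10) (colour), by class (columns), with white lines between lists in the order Vwf and granule, clot start and inhibitors, fibrinolysis, flow-responsive, receptors and G proteins, protein C. Gp9, Itgb3, F2rl2, F10 and F5 are brightest in megakaryocyte-like cells, Anxa2 and Tfpi in endothelium, and Procr in the precursor-like classes.

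The megakaryocyte-like cells held most of the Vwf list, with 7 of 9 tested genes higher than in endothelial-like cells and none lower (median log2 ratio 2.40, or 2.37 with genes without a UMI set to their limit, against -0.08 over all genes tested, of which 10.2% were higher and 13.6% lower). Without Vwf itself these were 6 of 8 (median 2.56). The subunits of the platelet receptor for Vwf had no UMI in endothelial-like cells and stood at 952 CPM (Gp9), 120 CPM (Gp5), 56.4 CPM (Gp1ba) and 42.7 CPM (Gp1bb) in megakaryocyte-like cells. Itgb3 stood at 518 against 0.126 CPM. Of the receptor and G protein list 4 of 10 were higher and 2 lower (median 0.47), or 3 of 9 higher without F2r (median 0.39). F2rl2, which encodes the thrombin receptor PAR3, stood at 321 CPM against no UMI in endothelium, F2rl3, which encodes PAR4, at 78.6 against 20.6 CPM (1.54) and Arrb2 at 154 against 15.6 CPM (2.68). Gnai2 (475 against 1088 CPM) and Gna11 (5.13 against 31.3 CPM) were lower. Of clot start and inhibitors 3 of 5 were higher, F10 (140 against 0.063 CPM), F5 (73.5 against 0.568 CPM) and F13a1 (29.1 CPM against no UMI), and 2 lower, Tfpi (37.6 against 124 CPM) and Anxa5 (70.1 against 199.5 CPM), with a median of 1.97, or 1.94 with genes without a UMI at their limit. In the protein C list Pros1 was higher (46.1 against 11.98 CPM) and S1pr1 lower (3.42 against 44.5 CPM), both of the tested genes (median -0.33). Anxa2 was lower (1.71 against 240.3 CPM), 1 of 2 in the fibrinolysis list (median -2.37), and Nos3, with no UMI against 30.9 CPM, was 1 of 2 in the flow-responsive list (median -1.44, or -1.14 at the limit).

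In endothelial-like cells against the niche classes, S1pr1 of the protein C list was higher (44.5 against 0.72 CPM, log2 ratio 2.35), the only one of that list tested. Mmrn1, multimerin, which is stored in the granules of platelets and endothelium, was 1 of 2 tested of the Vwf list (67.0 against 0.106 CPM, 2.93; median of the list 0.83). Tfpi (124 against 18.5 CPM, 2.24) and Anxa5 (199.5 against 53.7 CPM, 1.72) were higher and Serpine2, protease nexin, lower (14.3 against 41.3 CPM, -1.08), the 3 tested genes of clot start and inhibitors. Both tested fibrinolysis genes were higher, Anxa2 (240.3 against 27.5 CPM, 2.74) and S100a10 (341 against 108 CPM, 1.57; median 2.15). In the receptor and G protein list 2 of 8 were higher, F2rl3 (20.6 against 0.0423 CPM, 1.61) and Gnai2 (1088 against 382 CPM, 1.48; median 0.73), and in the flow-responsive list 1 of 2, Nos3 (30.9 against 0.846 CPM, 1.91; median 1.68). Over all 5973 genes tested the median was -0.08, with 8.29% higher and 4.87% lower. Between arterial-gated and venous-gated cells the genes past the fold besides Vwf were Plat, tissue plasminogen activator (25.7 against 2.05 CPM, 1.57, from few UMIs), and Klf2 (6.43 against 27.2 CPM, -1.18, also from few UMIs). These were 1 of 3 genes tested in the fibrinolysis and flow-responsive lists each, while none of the protein C (1 tested), receptor (8 tested) or clot start (2 tested) genes was past the fold, against 6.32% higher and 4.82% lower of all genes. Klf2 in the 19 arterial-gated cells lay under the 19.3 CPM that 3 UMIs make there, so no difference in Klf2 is read from it. Between precursor-like cells with and without Cdh5, F10 was the 1 of 20 tested list genes to pass the fold (31.9 against 9.87 CPM, 1.08), against 0.596% higher and 0.289% lower of all genes.

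Against the arterial-gated cells, precursor-like cells with Cdh5 had 3 of 5 tested genes of the Vwf list higher: Itgb3 and Rab27a, which had no UMI in the 19 cells, and Cd63 (268 against 83.6 CPM, 1.57). With the 19 cells set at the limit of 3 UMIs, Itgb3 had a log2 ratio of 1.59, but that of Rab27a was 0.63, under the fold. The median of that list was 1.57, or 0.65 with those genes at their limit. All 3 tested fibrinolysis genes were lower (median -1.63), with Anxa2 at 23.6 against 347 CPM (-3.41). Among 3 tested genes of clot start and inhibitors Tfpi (-1.27) and Anxa5 (-2.62) were lower. F10 (31.9 CPM against no UMI) was higher only with the 19 cells at 0, and its log2 ratio was 0.52 at their limit. In the receptor list Gna11 was higher (38.8 against 12.9 CPM, 1.09), and Gnaq (20.1 against 64.3 CPM, -1.30) and Gnai2 (-1.61) were lower, of 7 tested. The arterial-gated level of Gna11 lay under the 19.3 CPM that 3 UMIs make in the 19 cells, so no difference in Gna11 is read from it. Nos3 (-1.87) was lower, 1 of 2 tested of its list, and Procr was the 1 of 2 in its own. Over all 6135 genes tested the median was -0.09, with 11.2% higher and 16.3% lower.

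Over the 16 classes of at least 25 cells, the genes with the pattern most like that of a member were ranked by the Pearson correlation of log2(CPM + 10) among 8779 genes, as a description. Classes share libraries and differ in depth, and each ranking leans on the class where the member is highest. For Procr these were Calcrl, the receptor of adrenomedullin and related peptides (r = 0.93), Il15 (0.91), Nkx2-3 (0.91), Pam (0.91) and Gimap5 (0.90). For Vwf they were Ndufa3 (0.93), Rad51d (0.91), P2ry1, an ADP receptor of platelets (0.89), Card19 (0.89) and Pdzk1ip1 (0.89). For F2r they were Fam63a (0.89), Nat9 (0.88), Tmem208 (0.86), Mff (0.86) and Mtss1l (0.85), all highest in megakaryocyte-like cells as F2r was. For Thbd they were Hbegf (0.86), Serf2 (0.85), Crim1 (0.85), Esyt2 (0.84) and Sh2d3c (0.83), all highest in smooth muscle-like cells. Among the members themselves Procr and Vwf were the most alike (r = 0.80), followed by F2r and Vwf (0.61), and the other 4 pairs lay between 0.16 and 0.36.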

How the data were processed

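Droplet single-cell RNA (10x v2) was deposited by the authors as raw UMI counts per gene and barcode in 1 pooled matrix, made with Cell Ranger and the mm10 build, per the submitters' processing notes; the counting settings are not given in the sources used here. The gene and barcode names deposited beside it carry no unit. The 4 genes, the 17 marker lists, the 6 haemostasis lists and the comparisons were chosen with earlier results of these data known, and the rule for naming clusters followed a look at them. Named genes were the 4 members, the 4 genes of each list with the highest CPM in an endothelial, precursor or megakaryocyte class, and the 5 genes most like each member; other list genes past the fold were named after their values were seen.

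The cell filter (1000 UMIs, 500 genes, 10% mitochondrial share at most) passed 9383 barcodes, and the 5% of each library with the highest doublet scores were removed (468), a fixed share, so doublets may remain. Cells were clustered on 30 principal components of 2000 variable genes with 15 neighbours (leidenalg 0.10.2, igraph 0.11.9, scikit-learn 1.9.0, numpy 2.4.6, Python 3.11.15), without the members and list genes, mitochondrial, ribosomal protein and sex-linked genes. A cluster took the list with the largest share of markers raised (20 CPM, log2 difference of 1, at least 3 markers), and 1 cluster was split again. Summed counts per class were scaled to CPM, with exact Poisson intervals, and shares of cells are given without intervals. With 1 pooled sample no test or p-value was computed. The fold rule was tried on counts simulated for the whole precursor-like, endothelial-like and niche classes. That trial covered neither the arterial-gated cells nor changed genes near the 20 CPM minimum. Alternatives are in the closing section.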

Additional observations from a re-analysis of the deposited data

How the results depend on the processing

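Of 460 recomputed log2 ratios of the 4 genes, 418 stayed within the limits of the pooled value, 41 moved beyond them and 1 turned the sign of a ratio past the fold. The sign differed from the pooled one in 30, spread over 10 of the 23 ratios. Ratios below are log2. For precursor-like cells with Cdh5 against arterial-gated cells, Procr (1.44) was -0.027 at resolution 2, 2.99 with a margin of 3 genes and 0.62 to 2.94 without 1 library each, while Vwf (0.65) was -0.44 with the margin of 3 genes and 2.19 with the gate on arterial genes alone. For arterial-gated against venous-gated cells, Procr (-0.016) was 1.39 at resolution 2, -1.62 with the margin of 3 genes and -1.62 to 0.66 without 1 library each. Thbd (0.30) was -0.96 and Vwf (1.61) 2.64 with the margin of 3 genes, which left 4 arterial-gated cells, and Vwf was 0.058 with the gate on arterial genes alone. For endothelial-like cells against niche classes, a pseudocount of 1 gave 3.87 for Procr, 2.79 for Thbd, 1.07 for F2r and 3.59 for Vwf. Totals without mitochondrial and ribosomal genes gave 1.81 for Procr, 1.06 for Thbd and 1.46 for Vwf, and equal weight per library gave 1.07 for F2r and 0.997 for Vwf. For megakaryocyte-like against endothelial-like cells, gates on markers without clusters gave 1.49 for F2r and 1.72 for Vwf, a pseudocount of 1 gave -2.15 for Procr and 2.81 for Vwf, cells thinned to 3000 UMIs gave 2.53 for F2r, and the class without its smaller cluster gave 2.46 for F2r and 3.09 for Vwf. Without 1 library each, Vwf there ran from 1.56 to 2.70. For precursor-like cells with Cdh5 against those without, allowing the list genes for clustering gave 1.16 for Procr and 1.67 for Vwf, gates without clusters 1.06 and 1.47, a pseudocount of 1 gave 1.17 for Thbd, and equal weight per library 0.74 for Procr. Against all endothelial-like cells, a pseudocount of 1 gave 1.85 for Procr and 2.85 for Vwf, totals without mitochondrial and ribosomal genes 2.53 for Vwf, and equal weight per library 2.40 for Procr, 0.53 for F2r and 3.12 for Vwf. Procr ran from 1.32 to 1.86 without 1 library each. The cause of these moves was not tested.

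With a minimum of 50 CPM in place of 20, the genes past the fold numbered 988 against 1692 (precursor-like with Cdh5 against arterial-gated cells), 283 against 647 (arterial-gated against venous-gated), 435 against 786 (endothelial-like against niche), 835 against 1440 (megakaryocyte-like against endothelial-like) and 26 against 49 (Cdh5 split), since fewer genes enter. Median of ratios scaling moved all genes by -0.08 to 0.04. Equal weight per library could not be run where no library held 20 cells of both classes. No paired analysis was possible because the matrix holds 1 pooled sample. Depth limits the arterial-gated values most, with 2 to 9 UMIs per member.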
